A study of Arabidopsis thaliana with 6 samples.

Results

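Condensed tannins, or proanthocyanidins, give the Arabidopsis seed coat its brown colour and are made in the endothelium, the innermost layer of the coat, which is maternal tissue. A complex of a MYB, a bHLH and a WD40 protein (TT2, TT8 and TTG1) switches on the late enzymes of the pathway there, and the products are then moved into the vacuole. The 10 genes described here are the regulators TTG1 (AT5G24520), TT8 (AT4G09820), TT2 (AT5G35550), MYB5 (AT3G13540), TTG2 (AT2G37260), TT1 (AT1G34790) and TT16 (AT5G23260) and the transport genes TT12 (AT3G59030), AHA10 (AT1G17260) and GSTF12 (AT5G17220). They were taken by locus from the deposited table, in which all 10 were present among 27779 gene rows. Transcripts were measured by RNA-seq in whole siliques, the fruits of Arabidopsis thaliana, 3 days after pollination, in 3 libraries of WT and 3 of the mutant agc1-4. Their columns are named Col for WT and sr for agc1-4. The labels gave no other treatment or allele, and nothing in them ties a library to its own plants. The p-values therefore set the genotypes against the variation among these libraries alone, which may be technical.

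Each of the 10 genes was well covered, with 110 to 2885 estimated counts per library out of totals of 7973366 to 11812934. WT replicate 3 stood apart on the second principal component of all tested genes, with a score of 25.2, while the remaining 5 libraries scored -12.9 to 4.27. The targeted gene, taken as AT5G40030 from background knowledge, was lower in every agc1-4 library, with 0.63, 1.78 and 1.01 FPKM in WT against 0.09, 0.39 and 0.07 in agc1-4 (log2 fold change -2.66, edgeR adjusted p = 0.000983). It had too few counts to be tested without WT replicate 2, and the log2 fold change was -3.76 without agc1-4 replicate 2. FPKM values are fragment numbers divided by gene length and library size. In a whole silique, fewer endothelium cells and less RNA per cell cannot be told apart.

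Among the 10 genes, TT8 and MYB5 rose in agc1-4 and none fell at an adjusted p under 0.05 in edgeR. That is 2 of 10 higher, where 6.55% of the 18828 genes tested were called higher and 7.07% lower. At an unadjusted p under 0.05, 4 were higher and 1 was lower, where 26.3% of all tested genes passed in either direction. DESeq2 called 1 higher and 0 lower, where it called 785 higher and 805 lower of 23826 genes. All 10 passed the filter on low counts. Their median log2 fold change was 0.09, and that of all tested genes was 0.00. The changes were small: the median size among all called genes was 0.404 on the log2 scale, and 76.4% of called genes changed by more than TT8 and 81.9% by more than MYB5.

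Transcripts of the transport genes GSTF12 and TT12 stood at the top of the set and those of TT1 and TT16 at the bottom. The order by FPKM, which is scaled to length, was GSTF12, TT12, TT8, TT2, AHA10, TTG2, MYB5, TTG1, TT1 and TT16 by the mean of all 6 libraries. GSTF12, at a mean of 209 FPKM, was above TT12, at 73.6, in every library, and the lowest GSTF12 value, 181, exceeded the highest TT12 value, 87.8. TT12 in turn stayed above TT8, TTG1 above TT1, and TT1 above TT16 with no overlap between their values over the 6 libraries. From TT8 (46.5 FPKM) through TT2, AHA10, TTG2 and MYB5 to TTG1 (29.7 FPKM) neighbours overlapped. Even TT16, the lowest at 13.4 FPKM, ranked above 60.3% of genes with any expression, and GSTF12 ranked above 98.2%.

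**Figure D1:**
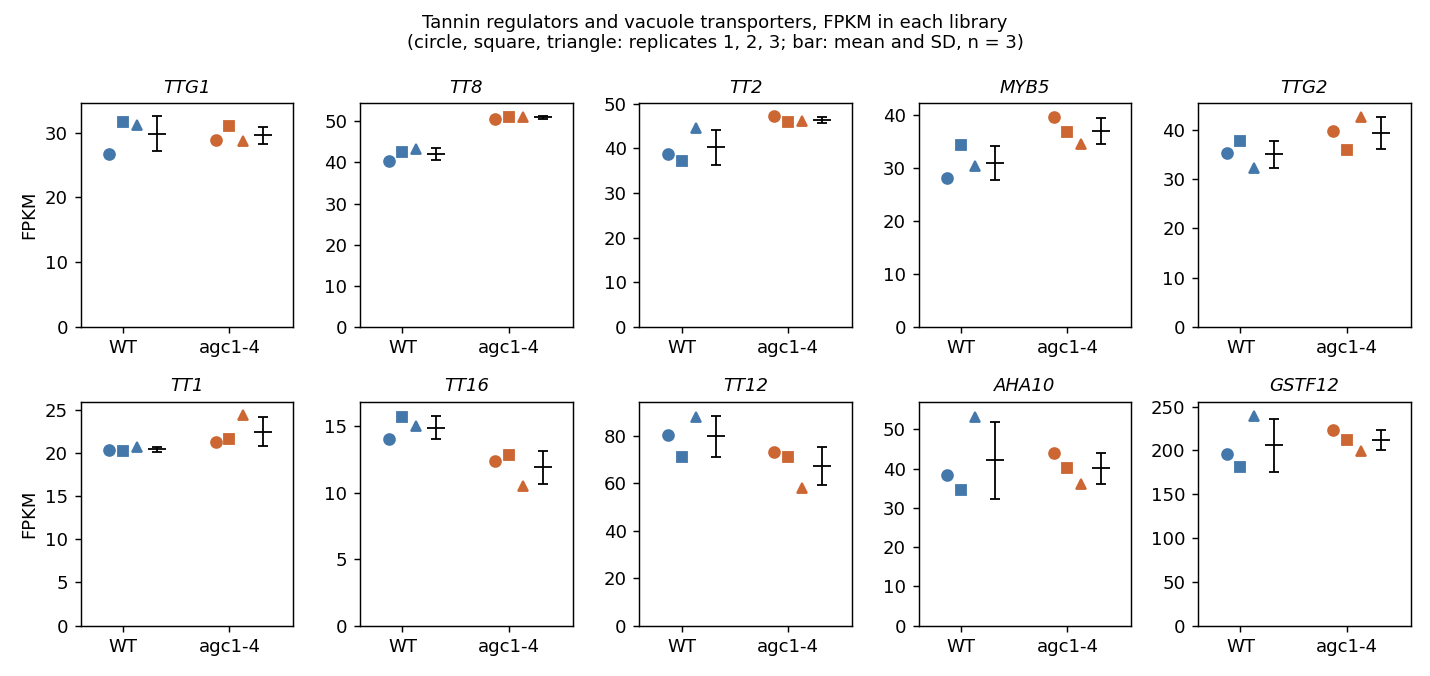
FPKM of the 7 regulators (TTG1 to TT16) and the 3 transport genes (TT12 to GSTF12) in each WT (blue) and agc1-4 (orange) library; black bars are the mean and SD of 3 libraries. TT8 lies between 50.6 and 51.1 in agc1-4, above its WT values of 40.4 to 43.4, while the genotypes overlap for TTG1, TTG2, TT12, AHA10 and GSTF12.

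TT8, the bHLH partner in the complex, had 40.4, 42.4 and 43.4 FPKM in WT replicates 1 to 3 and 50.6, 51.1 and 51.1 FPKM in agc1-4 replicates 1 to 3. Every agc1-4 library lay above every WT library, and the 3 agc1-4 libraries were nearly equal. The means were 42.1 ± 1.49 and 51.0 ± 0.289 FPKM (SD, n = 3), a 1.21-fold rise with a log2 fold change of 0.27 ± 0.06 (SE) and a 95% interval of 0.15 to 0.40 (edgeR adjusted p = 0.00262). It was called under all 13 other fits, at adjusted p values of 0.000934 to 0.0201. The spread of TT8 between WT libraries was as small as counting error alone would give, 3.55% against 3.57%. In agc1-4 it was smaller, 0.567% against 3.20%. An SD from 3 libraries is imprecise, so neither spread is read as a trait of TT8. EGL3 and GL3, bHLH genes that can take this position in the complex, were not called. EGL3 was at 20.7 ± 2.13 FPKM in WT and 21.1 ± 0.215 in agc1-4, with a 95% interval of its log2 fold change from -0.13 to 0.19. GL3 was at 0.25 to 1.03 FPKM.

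TT2, the MYB partner that gives the complex its tannin targets, had 38.8, 37.2 and 44.7 FPKM in WT and 47.2, 45.9 and 46.2 in agc1-4. The groups did not overlap, but WT replicate 3 came close to the agc1-4 values. Its log2 fold change was 0.22 ± 0.08 (SE, 95% interval 0.05 to 0.38), and the gene missed the threshold (edgeR adjusted p = 0.0704). It was not called in 12 of 13 alternatives, among them DESeq2 (adjusted p = 0.244). Without WT replicate 2 the log2 fold change was 0.15 (edgeR adjusted p = 0.243), and without WT replicate 3 it was 0.30 and passed (edgeR adjusted p = 0.0114).

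MYB5, a MYB that acts partly in parallel with TT2 in the seed coat, had 28.1, 34.3 and 30.3 FPKM in WT and 39.6, 36.8 and 34.5 in agc1-4. Here the lowest agc1-4 library exceeded the highest WT library by a narrow margin. MYB5 rose 1.19-fold, with a log2 fold change of 0.26 ± 0.08 (SE, 95% interval 0.09 to 0.42, edgeR adjusted p = 0.0368). Leaving out WT replicate 1, WT replicate 3, agc1-4 replicate 1 or agc1-4 replicate 2 ended the call (edgeR adjusted p = 0.0693 to 0.201), in DESeq2 (adjusted p = 0.148) and in limma (adjusted p = 0.0765 and 0.078). MYB5 was also the only 1 of the 10 whose deposited counts were not whole. In RefSeq it overlaps M3KE1, a protein kinase gene on the opposite strand, which rose from 58.8 ± 4.42 to 74.5 ± 3.47 FPKM (edgeR adjusted p = 7.51e-05). The strand of the libraries was not given in the sources used here, so reads of the overlap cannot be told apart.

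TTG1, the WD40 protein that holds the complex together, did not differ between genotypes beyond the spread of the libraries. Its FPKM was 26.7, 31.6 and 31.2 in WT and 28.9, 31.0 and 28.8 in agc1-4, and the agc1-4 values lay inside the WT range. The log2 fold change was -0.02 ± 0.08 (SE, edgeR adjusted p = 0.921), with a 95% interval of -0.18 to 0.15, or 0.881-fold to 1.11-fold. Its sign changed in 4 of the 6 fits without 1 library (-0.08 to 0.02). LWD1 and LWD2 encode WD40 relatives known from the circadian clock. LWD1 rose 1.22-fold, from 19.6 ± 1.09 to 23.8 ± 1.11 FPKM (edgeR adjusted p = 0.0342), and LWD2 had a log2 fold change of -0.0002 (edgeR adjusted p = 0.999). The LWD1 call was lost without WT replicate 2 or 3, without agc1-4 replicate 2 or 3 and in DESeq2 (adjusted p = 0.0667 to 0.156).

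TTG2, also called WRKY44, is a WRKY factor that acts downstream of the complex in seed coat and trichomes. By FPKM it overlapped between genotypes, with 35.3, 37.6 and 32.1 in WT and 39.6, 35.9 and 42.5 in agc1-4. By CPM, counts scaled to library size, which are not scaled to length, it did not: 61.3, 61.9 and 59.6 in WT and 70.2, 63.6 and 72.5 in agc1-4. The gene length implied by the deposited counts and FPKM ran from 1653 bases in WT replicate 2 to 1856 in WT replicate 3, a range of 12.3%, against 0.0262% for TT1. The 2 units therefore order the libraries of this gene differently. On counts, the log2 fold change was 0.17 ± 0.07 (SE, 95% interval 0.03 to 0.32), which did not pass after adjustment (edgeR adjusted p = 0.11; 0.0746 to 0.331 over the alternatives).

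TT1, a WIP-type zinc finger protein of endothelium differentiation, had 20.4, 20.2 and 20.7 FPKM in WT and 21.3, 21.7 and 24.4 in agc1-4. The groups did not overlap, and agc1-4 replicate 3 stood above the other 5 libraries. With a log2 fold change of 0.13 ± 0.10 (SE, 95% interval -0.07 to 0.33), TT1 was not called (edgeR adjusted p = 0.418). Its log2 fold change dropped to 0.078 when agc1-4 replicate 3 was left out (edgeR adjusted p = 0.741). Of the other 5 WIP genes in the family list, WIP2 and WIP3 had enough counts to be tested. WIP3 fell from 2.22 ± 0.159 to 1.11 ± 0.205 FPKM, 1.97-fold (edgeR adjusted p = 0.0112), with 16 to 53 counts per library. It was not called without agc1-4 replicate 2 (edgeR adjusted p = 0.0638) or in DESeq2 (adjusted p = 0.065).

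TT16, the MADS-box gene of endothelium identity, was the regulator with the largest fold difference, and the direction was downward. Its FPKM was 14.0, 15.7 and 15.0 in WT and 12.4, 12.8 and 10.5 in agc1-4. Every agc1-4 library lay below every WT library. The log2 fold change was -0.31 ± 0.12 (SE), with a 95% interval of -0.55 to -0.07, and missed the threshold (edgeR adjusted p = 0.0753; 0.0628 to 0.28 over the alternatives). It was the least covered of the 10 genes, with 110 to 235 counts per library. Its closest relative AGL63 had 1 to 6 counts per library and was not tested.

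By FPKM, then, the genotypes did not overlap for 4 of the 10 genes in the upward direction (TT1, TT2, TT8 and MYB5) and 1 downward (TT16). Among all tested genes those shares were 14.5% and 15.0%. By CPM, TTG2 joined the 4, where 14.7% of tested genes lay higher and 15.1% lower without overlap. All of these were regulators, and the 3 transport genes overlapped in both units.

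**Figure D2:**
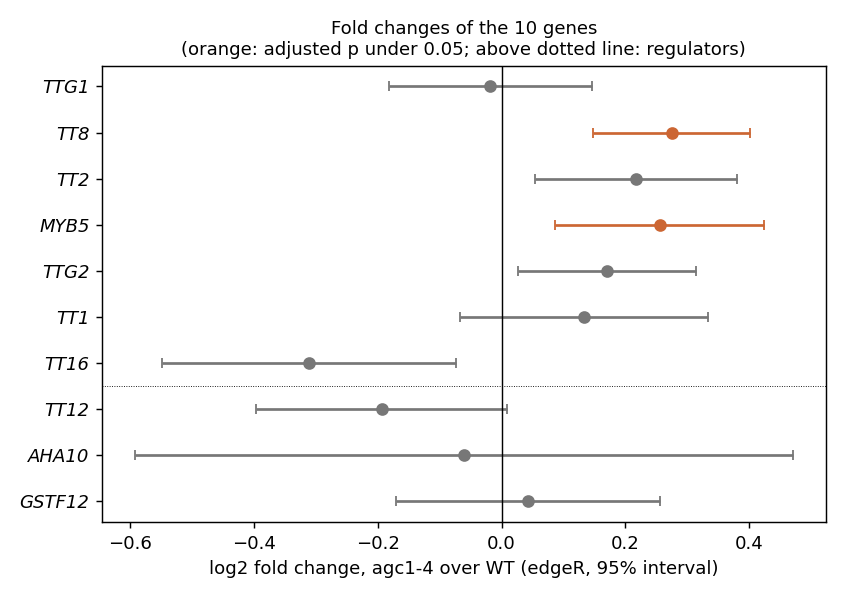
Log2 fold change of agc1-4 over WT for each gene from edgeR, with its 95% interval; orange marks an adjusted p under 0.05. TT8 (0.27) and MYB5 (0.26) are called, TT16 (-0.31) lies lowest, and AHA10 has the widest interval (-0.59 to 0.47).

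TT12, a MATE transporter that carries tannin precursors into the vacuole, had 80.6, 71.0 and 87.8 FPKM in WT and 73.2, 71.0 and 58.2 in agc1-4. The ranges overlapped, with agc1-4 replicate 3 below the rest. TT12 had a log2 fold change of -0.19 ± 0.09 (SE, 95% interval -0.40 to 0.01, edgeR adjusted p = 0.211). Without WT replicate 2 it was -0.29 and passed (edgeR adjusted p = 0.00651), and without agc1-4 replicate 3 it was -0.11. The implied length of TT12 was 1578 to 1605 bases in WT and 1614 to 1661 in agc1-4. On FPKM the difference was accordingly larger, -0.24 in limma on log2(FPKM + 1), but did not pass there either (adjusted p = 0.151). DTX35, another MATE transporter of flavonoids, was at 199 ± 13.7 FPKM in WT and 216 ± 2.83 in agc1-4 (edgeR adjusted p = 0.0867).

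AHA10, the proton pump of the tonoplast that powers this import, had 38.4, 34.6 and 53.1 FPKM in WT and 44.0, 40.1 and 36.1 in agc1-4. WT replicate 3 was the highest of the 6 libraries, and WT replicate 2 the lowest. The spread in WT was 23.2% of the mean, where counting error gives 3.02%, and the log2 fold change was -0.06 ± 0.20 (SE, edgeR adjusted p = 0.894). Its 95% interval, 0.663-fold to 1.39-fold, was the widest of the 10 genes. Without WT replicate 3 the sign changed and the log2 fold change was 0.14 (edgeR adjusted p = 0.233). Of the other 10 AHA proton pump genes, known from the plasma membrane, 8 were tested and 0 were called in edgeR. At an unadjusted p under 0.05, and in DESeq2, 0 passed as well. Of all tested genes 13.6% were called in edgeR, and 26.3% had an unadjusted p under 0.05. DESeq2 called 785 higher and 805 lower of 23826 genes.

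GSTF12, a glutathione S-transferase needed for anthocyanins and tannins to reach the vacuole, had 197, 181 and 240 FPKM in WT and 223, 212 and 200 in agc1-4. The agc1-4 values all lay inside the WT range. The log2 fold change was 0.04 ± 0.10 (SE, edgeR adjusted p = 0.832), with a 95% interval of 0.888-fold to 1.19-fold, and it ran from -0.05 without WT replicate 2 to 0.17 without WT replicate 3. GSTF14 of the same family rose from 7.80 ± 1.23 to 12.1 ± 2.54 FPKM, 1.58-fold (edgeR adjusted p = 0.00474), a call that was lost without agc1-4 replicate 1 (edgeR adjusted p = 0.0886). TT12 and GSTF12 each overlap a gene on the opposite strand in RefSeq. These are AT3G59040 and the carotenoid synthesis gene PSY, and neither was called (edgeR adjusted p = 0.711 and 0.175).

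The transport genes shared an order of libraries by FPKM within each genotype. TT12, AHA10 and GSTF12 were each highest in replicate 3 and lowest in replicate 2 among the WT libraries. Among the agc1-4 libraries, each was highest in replicate 1 and lowest in replicate 3. The order was taken from GSTF12 after its values were seen, so GSTF12 has it by definition. Of all tested genes 2.75% had the same order in both genotypes. None of the 7 regulators did. DFR, LDOX and BAN, the late enzymes that lead to tannin precursors, also had it, 3 of the 12 enzymes in the list. So did 3 of 19 family relatives (AHA3, GSTF6 and GSTF14). TT4, the first enzyme of the pathway, did not have it by FPKM, being lowest in WT replicate 1. By CPM it did, but with WT replicates 1 and 2 nearly tied (-0.017 and -0.020 from the WT mean in log2 CPM). The share of all genes with the order by CPM was not computed. Of the regulators, TT1 and TT2 shared the WT order alone and MYB5 the agc1-4 order alone. WT replicate 3 is also the library that stood apart over all genes, and its part in this pattern was not tested.

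**Figure D3:**
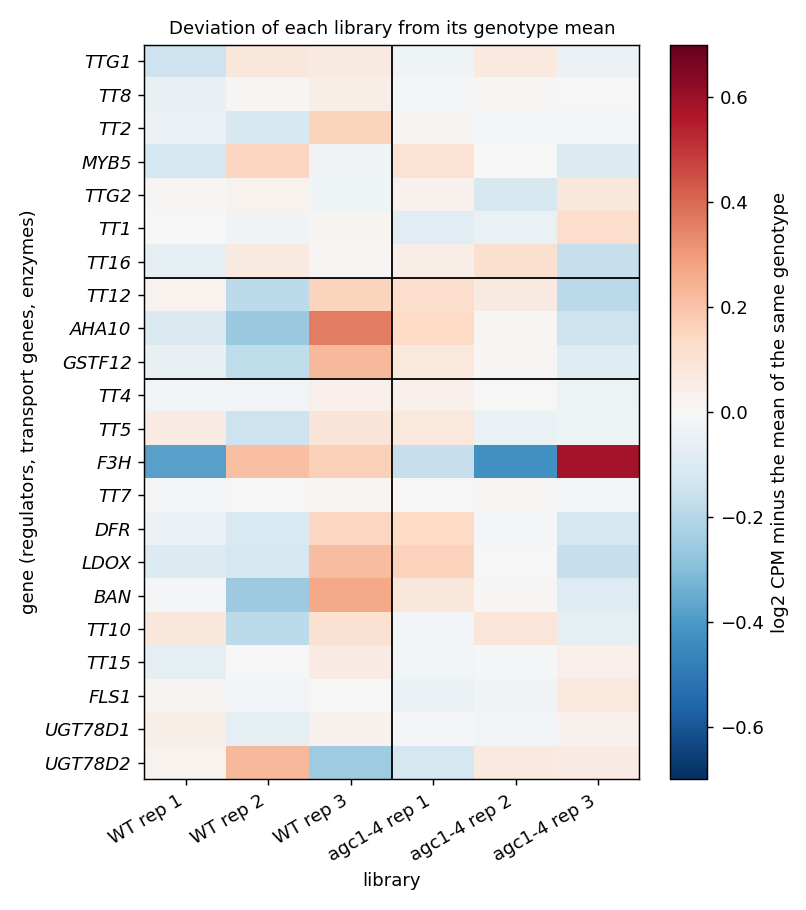
Log2 CPM of each library minus the mean of its own genotype, for the 7 regulators, the 3 transport genes and 12 flavonoid enzymes. WT replicate 3 is high for AHA10 (0.36), GSTF12 (0.23) and TT12 (0.16), while TT8 stays between -0.05 and 0.04 in every library.

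The 5 genes closest to the mean standardised log2 CPM of the 10 genes were PSK3, AT2G42390, IMP4, AT4G11690 and AHL20. Likeness was measured as Pearson r over 6 libraries, and the values were 0.986 to 0.994 among 18178 genes compared. With 6 points, 212 genes had an r over 0.9, and none of the 5 was called (edgeR adjusted p = 0.178 to 0.624). The mean was lowest in WT replicates 1 and 2, at -0.63 and -0.45, and 0.34 in WT replicate 3, above 2 of the agc1-4 libraries.

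The regulators switch on the late enzymes of the pathway. Of 12 flavonoid enzyme genes 1 was called higher and 0 lower in edgeR, beside 6.55% higher and 7.07% lower of all tested genes, with a median log2 fold change of 0.05. At an unadjusted p under 0.05, 1 was higher and 1 lower, where 26.3% of all tested genes passed in either direction. DESeq2 called 0, where it called 785 higher and 805 lower of 23826 genes. BAN, the anthocyanidin reductase that commits the pathway to tannins, had 458, 392 and 560 FPKM in WT and 537, 511 and 477 in agc1-4. It was not called (log2 fold change 0.11 ± 0.15, SE, edgeR adjusted p = 0.708), but was without WT replicate 3, with a log2 fold change of 0.26 (edgeR adjusted p = 0.00973). DFR and LDOX had log2 fold changes of 0.03 ± 0.07 and 0.01 ± 0.12 (SE, edgeR adjusted p = 0.837 and 0.968). The called gene was TT10, a laccase that oxidises tannins as the coat browns, which rose from 5.25 ± 0.559 to 7.20 ± 0.390 FPKM, 1.38-fold (edgeR adjusted p = 0.0189). That call was lost without WT replicate 2, without agc1-4 replicate 1 or 2, and in DESeq2 (adjusted p = 0.0539 to 0.0995).

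The MYB and bHLH network also controls trichomes, root hairs and mucilage. A list of 20 other genes held its partners and targets and also relatives such as MYB11, MYB12 and MYB111. Of these 20 genes 13 were tested, and 3 were called higher and 0 lower in edgeR (median log2 fold change 0.12). The shares over all tested genes were 6.55% and 7.07%. At an unadjusted p under 0.05, 4 were higher and 1 lower, where 26.3% of all tested genes passed in either direction. DESeq2 called 2 higher and 0 lower, where it called 785 higher and 805 lower of 23826 genes. GL2, a homeodomain factor that the complex activates in trichomes and in the seed coat epidermis, had 57.7, 64.7 and 56.6 FPKM in WT and 75.1, 72.1 and 75.2 in agc1-4. It rose 1.25-fold (log2 fold change 0.32 ± 0.06, SE, edgeR adjusted p = 0.000314) and was called in every alternative. ETC3, a single-repeat MYB that competes with the activating MYBs, rose from 8.25 ± 2.93 to 16.1 ± 3.53 FPKM, 1.96-fold (edgeR adjusted p = 0.00471), but was not called in limma on log2(FPKM + 0.1) (adjusted p = 0.0514). MYB12, an activator of flavonol synthesis, rose 1.23-fold (edgeR adjusted p = 0.0449). It lost its call in 9 of 13 alternatives: without WT replicate 2 or 3 or any 1 of the agc1-4 replicates, with the replicate number as a block, in DESeq2 and in limma (adjusted p = 0.053 to 0.185).

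Seed coat development and mucilage genes went both ways. Of 15 genes 14 were tested, 1 was called higher and 2 lower in edgeR, with a median log2 fold change of 0.05. The shares over all tested genes were 6.55% higher and 7.07% lower. At an unadjusted p under 0.05, 3 of the list were higher and 2 lower, where 26.3% of all tested genes passed in either direction. DESeq2 called 1 higher and 1 lower, where it called 785 higher and 805 lower of 23826 genes. NARS1, a NAC factor of the integuments, had 41.9, 43.8 and 39.4 FPKM in WT and 54.5, 55.6 and 53.5 in agc1-4, a 1.31-fold rise (log2 fold change 0.39 ± 0.06, SE, edgeR adjusted p = 8.98e-05). MUM2, a beta-galactosidase that modifies seed coat mucilage, had 33.8, 27.6 and 29.6 FPKM in WT and 19.4, 18.7 and 18.3 in agc1-4. It fell 1.61-fold (log2 fold change -0.68 ± 0.08, SE, edgeR adjusted p = 2.86e-07), and both NARS1 and MUM2 were called in every alternative. MYB61, a regulator of mucilage, fell 1.14-fold (edgeR adjusted p = 0.0442) but lost its call in 10 of 13 alternatives, among them each fit without 1 library except WT replicate 1 (adjusted p = 0.0514 to 0.144). STK, a MADS-box gene of ovule identity that also controls BAN, was at 345 ± 5.82 FPKM in WT and 371 ± 14.7 in agc1-4 (edgeR adjusted p = 0.207).

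**Figure D4:**
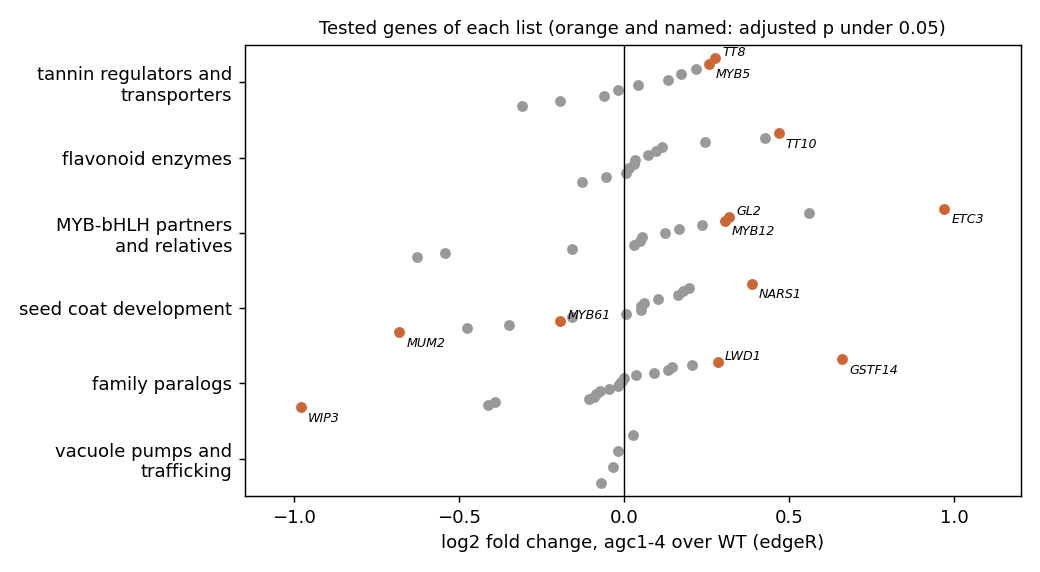
Log2 fold change of agc1-4 over WT in edgeR for every tested gene of 6 lists, with called genes in orange and named. Among the regulators and transport genes TT8 and MYB5 are called; the largest called changes of the other lists are WIP3 (-0.98), ETC3 (0.97) and MUM2 (-0.68).

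Relatives of the 10 genes in their own families were called in 3 of 19 tested cases, 2 higher (LWD1 and GSTF14) and 1 lower (WIP3). Their median log2 fold change was -0.01, and 29 were listed. At an unadjusted p under 0.05, 4 of these relatives were higher and 1 lower, and DESeq2 called 1 higher and 0 lower. Of all tested genes 13.6% were called, 6.55% higher and 7.07% lower, and 26.3% had an unadjusted p under 0.05. Over 23826 genes DESeq2 called 785 higher and 805 lower. These shares also stand beside the next list. Of 4 other genes of vacuolar pumping and trafficking, 0 were called higher and 0 lower in edgeR. At an unadjusted p under 0.05, and in DESeq2, 0 passed as well. The vacuolar pyrophosphatase gene AVP1 was at 406 ± 17.1 FPKM in WT and 414 ± 17.5 in agc1-4 (95% interval of the log2 fold change -0.08 to 0.13, edgeR adjusted p = 0.786).

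Some markers of other silique tissues also differed between genotypes. Beside the counts called below, 6.55% of all tested genes were called higher and 7.07% lower in edgeR. The summed FPKM of 10 endosperm markers was 161 to 164 in WT and 223 to 242 in agc1-4, with 4 of 9 tested called higher, 5 not called (MEA and AGL62 among them, with log2 fold changes of -0.36 and -0.11) and IKU2 below 1 FPKM in every library. For 6 embryo markers the sums were 4.98 to 7.66 and 15.6 to 15.9, with 3 of 4 tested called higher. LEC1 alone had means of 2.11 FPKM in WT and 9.69 in agc1-4. WOX9 was not called (log2 fold change -0.20), and WOX2 and PLT5 were below 1 FPKM throughout. Sums over 5 markers of the green valve were 6079 to 6319 in WT and 5188 to 5327 in agc1-4 (4 of 5 lower). RBCS1A alone had means of 5124 FPKM in WT and 4413 in agc1-4. The 4 replum and septum markers summed to 52.8 to 60.4 and 42.5 to 46.7 (3 of 3 tested lower, STY2 below 1 FPKM). Pollen markers, 5 in number, summed to 131 to 172 and 172 to 209, ranges that overlapped, with 1 of 5 called higher. The part of these tissues in the changes of TT8, MYB5 and the other called genes was not tested.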

How the data were processed

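The authors deposited 1 table with 12 value columns. Of these, 6 hold estimated counts per gene, per the file headers and the values, of which 4.32% to 4.86% per library are not whole. The other 6 hold FPKM, computed by the authors, per the file headers. Aligner, counting tool, build and library strand are not given in the sources used here. Per the labels' protocols, RNA was extracted with Trizol and libraries made with a standard Illumina protocol.

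Estimated counts were rounded and tested with edgeR 4.0.16 (R 4.3.3): TMM scaling, the filterByExpr filter and a robust quasi-likelihood F-test of agc1-4 against WT with no covariate. Benjamini-Hochberg adjustment ran over all 18828 genes tested, and 8951 rows were filtered out. Called means an adjusted p under 0.05. The SE is the size of the log2 fold change divided by the square root of F, and 95% intervals use the t distribution. CPM used TMM library sizes. Counting error is the spread that Poisson counts give. The fits were tested on simulated counts. Of 209 calls made there, 17 were false. The smallest simulated difference was 1.5-fold, at which 59 genes out of 67 were found. At 2-fold and 4-fold none was missed. Differences as small as those of TT8 and MYB5 were not simulated, so recovery at that size is not known. Changes were simulated only in genes above a minimum mean count. Recovery in genes with few counts, such as WIP3 and the targeted gene, is therefore not known either.

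The 10 genes and the lists of other genes, 110 further loci, were chosen with earlier results of these data known. Named are the 10 genes, the targeted gene, up to 6 called genes of each other list, 6 genes fixed by name, and the 5 genes closest to the 10 in pattern. LWD2, DFR, LDOX, DTX35, the early enzymes, the overlapping genes and some tissue markers were added after their values were seen. Alternatives were RLE factors, upper-quartile scaling, no filter, the DESeq2 1.42.0 Wald test, limma 3.58.1 on log2(FPKM + 1) and log2(FPKM + 0.1) (genes reaching 1 FPKM in 3 or more libraries), a block for the replicate number, leaving out every library in turn, and an adjusted p under 0.01. RefSeq (TAIR10.1) served only for gene names, strand and which genes overlap.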

Additional observations from a re-analysis of the deposited data

How the results depend on the processing

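TT8 kept its direction and its call in all 13 other fits. TT1, TT16 and TTG2 kept their direction and were called in none of them, and TT2, MYB5 and TT12 kept their direction but not their side of the threshold. The vacuole list had 0 called throughout. The number of the 10 genes called higher was 1 in DESeq2, in limma with a pseudocount of 1 or 0.1 and at an adjusted p under 0.01, and 1 to 2 without 1 library; called lower were 0 to 1 without 1 library, the 1 being TT12. Flavonoid enzymes called higher were 0 in DESeq2 and at an adjusted p under 0.01, and 0 to 2 without 1 library. The MYB and bHLH list had 1 higher in limma with a pseudocount of 0.1. Seed coat development had 2 higher under upper-quartile scaling and without the filter, and 1 to 3 without 1 library; it had 1 lower under upper-quartile scaling, in DESeq2, in both limma fits and at an adjusted p under 0.01, and 1 to 2 without 1 library. Family relatives had 1 higher and 0 lower in DESeq2 and at an adjusted p under 0.01, and 1 to 4 higher and 0 to 2 lower without 1 library. Over all genes 785 were higher and 805 lower in DESeq2, 694 and 734 at an adjusted p under 0.01, 875 and 848 lower in limma with a pseudocount of 1 and 0.1, and 852 to 1438 higher and 823 to 1378 lower without 1 library. Log2 fold changes near 0 changed sign in fits without 1 library: TTG1 ran from -0.082 to 0.023, AHA10 from -0.19 to 0.14, GSTF12 from -0.049 to 0.17, AVP1 from -0.012 to 0.064, BAN from -0.0080 to 0.26 and EGL3 from -0.0026 to 0.10. Why was not tested. Upper-quartile scaling moved the median of all genes by 0.015.

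Same-numbered WT and agc1-4 libraries did not deviate together (r of -0.03, 0.01 and 0.03 over tested genes). No shared effect of the number was thus seen. Whether these libraries were handled together is not in the labels and cannot be told from such correlations. With the replicate number as a block, 1310 genes were higher and 1333 lower, 2 of the 10 genes were higher and 0 lower, and seed coat development had 2 higher and 1 lower.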

Other observations

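F3H, the flavanone 3-hydroxylase of the early pathway, was listed far below its neighbours in the pathway; whether its reads were counted elsewhere cannot be told from the table. It had 7.35, 11.1 and 10.6 FPKM in WT and 11.5, 9.43 and 19.1 in agc1-4, where TT4 (chalcone synthase), TT5 (chalcone isomerase) and TT7 (flavonoid 3'-hydroxylase) had means of 1771, 345 and 609 FPKM in WT. Relative to its mean, F3H had the widest spread between agc1-4 libraries of these 4 genes (38.0%), and it was not called (log2 fold change 0.43 ± 0.31, SE, edgeR adjusted p = 0.466).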
